A study of Mus musculus with 4 samples.

Results

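The genes described here encode the desmosome and the intercalated disc, the junction that joins heart muscle cells end to end. Genes were included by symbol, 10 in all: the desmosomal genes *Dsp*, *Jup*, *Pkp2*, *Dsc2* and *Dsg2*, the disc genes *Ctnna3*, *Xirp1*, *Xirp2* and *Nrap*, and the intermediate filament gene *Des*. Of these, 9 were found among the 24637 genes of the table, 8 of them passed the filter on low values, and *Nrap* was not analysed here. Messenger RNA was sequenced from 4 cultures of mouse embryonic stem cells (ESCs) driven towards cardiomyocytes, 2 WT and 2 labelled *Taf4a*-/-. The lines were isolated from blastocysts of crosses of *Taf4a*+/- C57Bl6J mice, in which the null allele lacks some exons of *Taf4a*, the gene of a core subunit of the general transcription factor TFIID. ESCs were kept on feeder cells with LIF, grown as embryoid bodies for 5 days in medium rich in serum, and then plated on gelatin, where the RNA was taken at day 9. The comparison addressed which genes of a cardiac culture depended on *Taf4a*. RNA came from whole cultures of mixed cell types, so fewer cells of a type and less RNA per cell cannot be told apart, and each genotype rests on 2 libraries.

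Desmosomes hold neighbouring cells together and are found in epithelia as well as in heart muscle. The desmosomal cadherins, desmogleins and desmocollins, span the membrane and bind those of the next cell. Inside the cell the armadillo proteins plakoglobin and plakophilin tie the cadherin tails to desmoplakin, which in turn anchors intermediate filaments, desmin in muscle and keratins in epithelia. In the heart these parts mix with those of the adherens junction into a shared structure, the area composita, and the genes of the 5 desmosomal members are the classical disease genes of arrhythmogenic cardiomyopathy. Alpha-T-catenin and the Xin actin-binding repeat proteins belong to the disc of striated muscle more narrowly.

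The libraries held 21732746 to 27733034 reads on genes, recovered from the normalized counts that the authors deposited. The normalized count of *Taf4a* was 889 and 678 in the WT libraries and 1722 and 1799 in the libraries labelled *Taf4a*-/-, and was thus higher there (2.26-fold, log2 fold change 1.18, SE 0.16, adjusted p = 0.00569, limma). A count over the whole gene does not separate the deleted exons, so it did not check the deletion, and the genotype is given as labelled throughout. The 10 cardiomyocyte markers summed to 30179 and 27406 normalized counts in WT and to 3166 and 2909.8 in the libraries labelled *Taf4a*-/-, with none at 0 in any genotype. *Tnnt2*, the cardiac troponin T gene, stood at 2730 and 3281 in WT and at 484 and 470.04 in the others. Among all 16926 genes tested, 17.3% were lower and 11.3% were higher in the libraries labelled *Taf4a*-/- (limma, adjusted p under 0.05). This split was 2928 lower and 1906 higher, and with quantile normalization it was 2459 lower and 2625 higher, with a shift of the median of all genes to 0.11 on the log2 scale. Lines also differed in sex-linked RNA, since the Y-linked *Eif2s3y* was at 1688 and 0 in WT and at 309 and 0 in the others, so the lines of each genotype differed. *Xist*, the RNA that coats the inactive X chromosome, was at 6.14 and 7.27 in WT and at 217 and 6470.0 in the libraries labelled *Taf4a*-/-, and was higher there (log2 fold change 7.27, adjusted p = 0.0157, limma). The part of this sex-linked difference in the values below was not tested.

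Of the 8 desmosomal and disc genes tested, 4 (50%) were lower in the libraries labelled *Taf4a*-/- and none was higher. Over all genes tested these shares were 17.3% and 11.3%. The lower genes were *Xirp1*, *Ctnna3*, *Dsc2* and *Dsg2*, in order of size. No gene was higher at an unadjusted p under 0.05 or by limma's voom on the recovered reads either, where the counts were 0 and 0. The genes of the desmosomal plaque, *Dsp*, *Jup* and *Pkp2*, and the filament gene *Des* did not pass the test. The median log2 fold change of the 8 genes was -0.49, against -0.01 over all genes tested. In 4 of the 8 both libraries labelled *Taf4a*-/- lay below both WT libraries, as did 36.6% of all genes. In 1 of them, *Dsp*, both lay above, as did 34.5% of all genes.

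**Figure D1:**
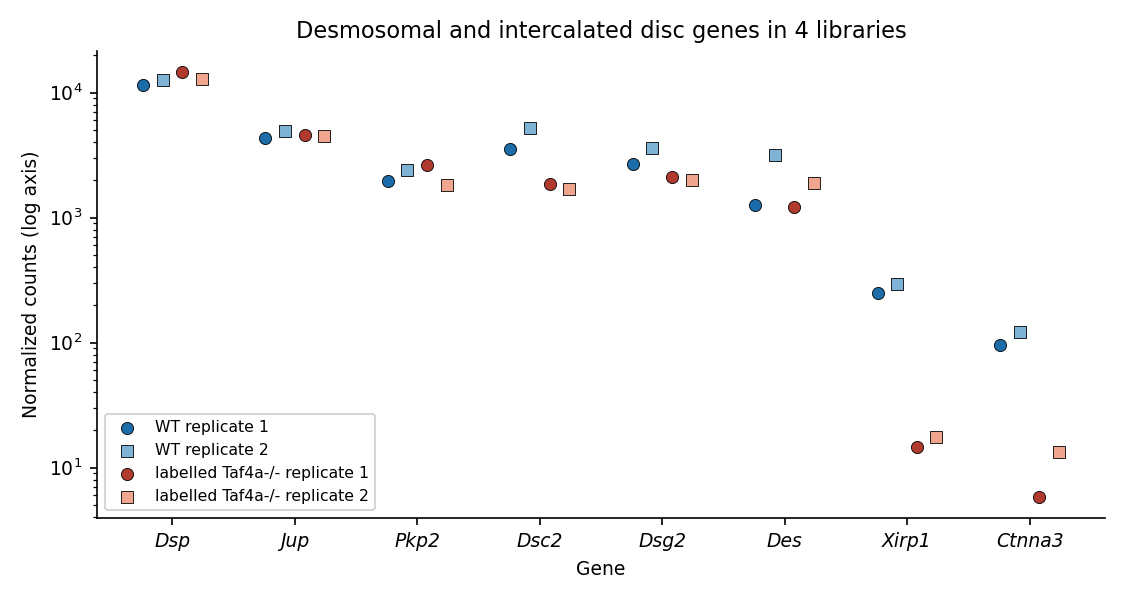
Normalized counts of the 8 genes tested, on a log axis, with 1 point per library (circle, replicate 1; square, replicate 2; blue, WT; red, labelled *Taf4a*-/-). The points of *Dsp*, *Jup* and *Pkp2* lie close together, those of *Des* spread within WT from 1253 to 3149, and the red points of *Xirp1* and *Ctnna3* lie far below the blue ones.

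None of the 3 plaque genes passed the test, and *Dsp* was among the more abundant messages of the cultures. *Dsp* encodes desmoplakin, the link from the plaque to intermediate filaments, and lies on the plus strand of chromosome 13 (ENSMUSG00000054889, chr13:38243197-38290446, NCBIM37). Its normalized counts were 11576 and 12641 in WT and 14648 and 12989 in the libraries labelled *Taf4a*-/-. Both of the latter lay above both WT libraries, by a log2 difference of 0.19 (SE 0.13, 95% interval -0.14 to 0.52) that did not pass the limma test (adjusted p = 0.327). A ratio between 0.908 and 1.43 is within that interval. Per kb of exon the levels were 1203 and 1313 in WT and 1522 and 1349 in the others, within the 93.1 to 95.3 percentiles of genes by level per kb. An unlisted antisense model, *Gm10129*, covers 3.74% of the exon length of *Dsp*, and the counting is not stated to use strand.

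*Jup*, on the minus strand of chromosome 11 (ENSMUSG00000001552, chr11:100230272-100259077), encodes plakoglobin, the armadillo protein that binds cadherin tails in desmosomes and adherens junctions. It was counted at 4371 and 4917 in WT and at 4551 and 4480.3 in the libraries labelled *Taf4a*-/-, so the genotypes overlapped. The log2 difference was -0.04 (SE 0.12, 95% interval -0.32 to 0.25, adjusted p = 0.832, limma), and its sign turned to 0.02 with the libraries scaled to equal totals. *Pkp2*, on the plus strand of chromosome 16 (ENSMUSG00000041957, chr16:16213411-16272805), encodes plakophilin 2, which joins desmoplakin to the cadherins in heart muscle. Normalized counts of *Pkp2* were 1952 and 2400.2 in WT and 2654 and 1833 in the others, with the highest and the lowest value both in a library labelled *Taf4a*-/-. The log2 difference of 0.03 (SE 0.21) had an interval of -0.47 to 0.53 and an adjusted p of 0.933. For these plaque genes a change of the size found for the cadherin gene *Dsc2* lies outside the intervals.

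Both desmosomal cadherin genes tested were among the 4 lower genes. *Dsc2*, on the minus strand of chromosome 18 (ENSMUSG00000024331, chr18:20189134-20218055), encodes desmocollin 2. It was counted at 3563 and 5178 in WT and at 1846 and 1698 in the libraries labelled *Taf4a*-/-. The lowest WT library was well above both others, and the level was 2.43-fold lower (95% interval 1.76 to 3.34), with a log2 fold change of -1.28 (SE 0.19, adjusted p = 0.00721, limma). It passed the threshold in all 13 alternative settings.

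*Dsg2* encodes desmoglein 2, the partner cadherin of desmocollin 2 in heart muscle, and lies on the plus strand of the same chromosome (ENSMUSG00000044393, chr18:20716575-20763022). Normalized counts were 2669 and 3633 in WT and 2131 and 2008 in the libraries labelled *Taf4a*-/-, without overlap. The level was 1.505-fold lower (log2 fold change -0.59, SE 0.17, adjusted p = 0.0452, limma). This call stood near the threshold and was made in 7 of 13 alternative settings, with adjusted p between 0.0168 and 0.174. Without WT replicate 2 the log2 fold change of *Dsg2* was -0.37 (adjusted p = 0.077), and without replicate 1 or 2 of the *Taf4a*-/- label the adjusted p was 0.12 and 0.174. The replicate block gave an adjusted p of 0.0529. A processed transcript on the other strand, *Gm16090*, shares 3.99% of its exon length.

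Other desmosomal cadherin genes sit between *Dsc2* and *Dsg2* in the same cluster and were near the limit of detection. Going along the chromosome, the order is *Dsc3*, *Dsc2*, *Dsc1*, *Dsg1c*, *Dsg1a*, *Dsg1b*, *Dsg4*, *Dsg3* and *Dsg2*. The most counted of the intervening or flanking genes was *Dsc3*, at 4.38 and 14.5 in WT and 10.8 and 2.21 in the libraries labelled *Taf4a*-/-. *Dsg3*, whose product is known from stratified epithelia, was at 2.63 and 11.4 in WT and at 1.96 and 0 in the others, and *Dsc1* was at 0 in all libraries but 1. None of these 7 genes reached the mean of 10 needed for a test.

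**Figure D2:**
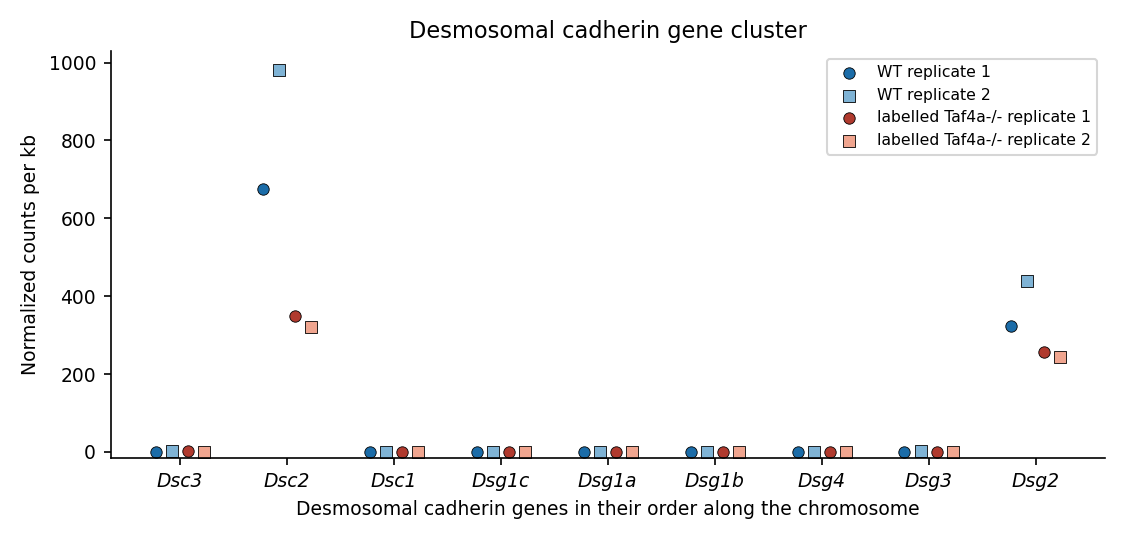
Normalized counts per kb of exon for the desmosomal cadherin genes, ordered along their chromosome, with 1 point per library (colours and symbols as in the plot of values by library). *Dsc2* stands between 322 and 981 and *Dsg2* between 243 and 439, and the other genes of the cluster stay below 3.

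Within the 5 desmosomal messages, the shares of the genotypes did not overlap for any gene. Shares are tied to each other, so lower shares of *Dsc2* and *Dsg2* raise those of the other genes. By level, which is another measure than a share, 36.6% of all genes lay without overlap below WT and 34.5% above it, and *Jup* and *Pkp2* overlapped. The *Pkp2* shares were close, at 11.3% in WT replicate 2 and 11.6% in replicate 2 of the *Taf4a*-/- label. Desmoplakin made up 37.1% and 33.3% of their summed level per kb in WT and 45.7% in both libraries labelled *Taf4a*-/-. The share of *Dsc2* was 20.8% and 24.9% in WT and 10.5% and 10.9% in the others. *Dsg2* took 9.95% and 11.1% in WT and 7.74% and 8.23% in the others, while *Jup* and *Pkp2* lay between 11.2% and 23.6% in all 4 libraries and were lowest in WT. The level of *Dsc2* per kb was 2.09 and 2.23 times that of *Dsg2* in WT and 1.36 and 1.32 times in the libraries labelled *Taf4a*-/-. These shares are a description, since the members they rest on are those tested above.

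**Figure D3:**
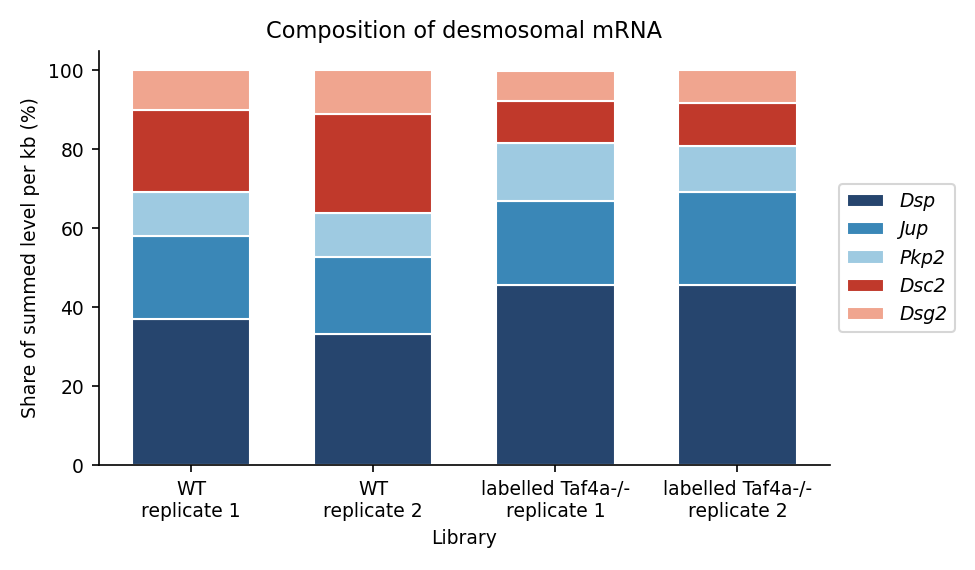
Share (%) of each of the 5 desmosomal genes in their summed normalized counts per kb of exon, 1 bar per library. The *Dsc2* and *Dsg2* parts are narrower in the libraries labelled *Taf4a*-/-, at 10.5% to 10.9% and 7.74% to 8.23%, and the *Dsp* part is wider, at 45.7%.

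The genes of the striated muscle disc were much less abundant than the desmosomal genes and showed the largest differences. *Xirp1*, on the minus strand of chromosome 9 (ENSMUSG00000079243, chr9:119922873-119932716), encodes Xin, which binds actin and catenins at the intercalated disc. Normalized counts were 251 and 296 in WT and 14.7 and 17.7 in the libraries labelled *Taf4a*-/-, from 286 and 285 reads against 15 and 16. The level was 15.97-fold lower (95% interval 9.72 to 26.3; log2 fold change -4.00, SE 0.29, adjusted p = 0.00125, limma). The call held in all 13 alternative settings, with log2 fold changes from -4.12 to -3.43.

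*Ctnna3* encodes alpha-T-catenin, which binds plakophilin 2 and so couples the adherens junction to the desmosome in the area composita. It is a very long gene on the plus strand of chromosome 10 (ENSMUSG00000060843, chr10:62892846-64466415). It was counted at 96.4 and 123 in WT and at 5.87 and 13.3 in the libraries labelled *Taf4a*-/-, the latter from 6 and 12 reads. The log2 fold change was -3.47 (SE 0.47, 95% interval -4.61 to -2.33, adjusted p = 0.00543, limma), or 11.1-fold lower with an interval from 5.03 to 24.4. Over the 13 alternatives the log2 fold change ran from -4.00, without replicate 2 of the *Taf4a*-/- label, to -2.63, with a pseudocount of 10. Without WT replicate 2 it was -3.30 with an adjusted p of 0.0556, the only 1 of 13 alternatives in which the call was lost. *Lrrtm3* lies inside the *Ctnna3* span on the other strand, shares no exon bases with it, and was at 19.3 and 6.23 in WT and 10.8 and 2.21 in the others.

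*Xirp2*, on the plus strand of chromosome 2 (ENSMUSG00000027022, chr2:67284059-67364671), encodes the second Xin repeat protein, known from mature striated muscle. It was at 0 and 4.16 in WT and at 1.96 and 0 in the libraries labelled *Taf4a*-/-, which is 4 reads (exact 95% Poisson interval 1.09 to 10.2) against 2 (0.242 to 7.22). These intervals cover counting error only. With so few reads it was not tested, and a difference was not detectable at this depth.

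*Des*, on the plus strand of chromosome 1 (ENSMUSG00000026208, chr1:75356904-75365154), encodes desmin, the intermediate filament protein of muscle that attaches to desmoplakin. Its normalized counts were 1253 and 3149 in WT and 1209 and 1897 in the libraries labelled *Taf4a*-/-. WT replicate 2 was 2.51 times WT replicate 1, a gap larger than that of 96.5% of genes tested, where the median gap between WT libraries was 0.26 on the log2 scale. The genotypes overlapped, and the log2 difference was -0.39 (SE 0.44, 95% interval -1.45 to 0.67, adjusted p = 0.528). Without WT replicate 2 the sign turned, to 0.27 (adjusted p = 0.559). The 7 smooth muscle markers, a cell type that also makes desmin, summed to 30652 and 54947 in WT and to 20799 and 19863 in the others. *Acta2* and *Tagln*, their most abundant genes, were also higher in WT replicate 2, at 20618 and 35097 for *Acta2* and at 7513 and 15767 for *Tagln*. In the libraries labelled *Taf4a*-/-, replicate 2 was 1.57 times replicate 1 for *Des*. There *Acta2* (12344 and 12138) and *Tagln* (6592 and 6165) were not higher in replicate 2. The part of such cells in the *Des* values was not tested. An unlisted processed transcript on the other strand, *Gm15179*, covers 5.86% of the exon length of *Des*.

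Ranked by level per kb of exon in WT, *Dsp* came first at 1258 ± 78.2 (SD, n = 2), and *Xirp1* and *Ctnna3* came last, at 46.8 ± 5.50 and 15.2 ± 2.56. Between them stood *Dsc2* at 828 ± 216, *Jup* at 722 ± 59.9, *Des* at 586 ± 357, *Pkp2* at 406 ± 59.2 and *Dsg2* at 381 ± 82.4, and each of these overlapped its neighbour in the order. In the libraries labelled *Taf4a*-/- the order became *Dsp* (1436 ± 122), *Jup* (702 ± 7.76), *Pkp2* (419 ± 108), *Des* (414 ± 130), *Dsc2* (336 ± 19.9) and *Dsg2* (250 ± 10.5), followed by *Xirp1* at 2.77 and *Ctnna3* at 1.32. Here *Pkp2* overlapped *Des*, *Des* overlapped *Dsc2*, and the other neighbours did not overlap. *Dsc2* thus stood in the second place in WT and in the fifth in the others. In WT it overlapped *Jup* below it but not *Dsp* above it. In the others it overlapped *Des* above it but not *Dsg2* below it.

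Promoter sequences are shown to set a gene used in many tissues beside genes used in muscle. RefSeq windows from 250 bases before to 50 bases after a gene start (table on GRCm38.p6) were matched for 6 of the 10 genes, in 8 windows, 1 of them that of *Nrap*, whose expression was not analysed. Windows of *Pkp2*, *Xirp1*, *Dsg2* and *Dsc2* were not analysed here. Each window matched NCBIM37 at a single place, which gives the coordinates here. The first 280 bases are shown, on the plus strand, for a plaque gene, the catenin gene and the filament gene. Capitals mark a match to the MEF2 motif (CTA, any 4 bases and TAG), the binding motif of a family of muscle transcription factors, and sequences without capitals hold none.

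Dsp chr13:38242913-38243192: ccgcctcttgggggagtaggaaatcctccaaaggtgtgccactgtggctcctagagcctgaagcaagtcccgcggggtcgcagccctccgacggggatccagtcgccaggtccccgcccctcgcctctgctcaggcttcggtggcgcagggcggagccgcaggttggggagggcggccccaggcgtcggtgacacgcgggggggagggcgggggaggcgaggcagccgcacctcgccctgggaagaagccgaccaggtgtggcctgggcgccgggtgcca
Ctnna3 chr10:62892596-62892875: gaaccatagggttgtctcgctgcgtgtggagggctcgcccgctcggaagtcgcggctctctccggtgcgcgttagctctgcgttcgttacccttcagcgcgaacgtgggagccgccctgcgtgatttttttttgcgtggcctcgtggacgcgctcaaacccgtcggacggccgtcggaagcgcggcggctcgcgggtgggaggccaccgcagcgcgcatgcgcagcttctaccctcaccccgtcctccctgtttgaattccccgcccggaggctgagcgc
Des chr1:75356617-75356896: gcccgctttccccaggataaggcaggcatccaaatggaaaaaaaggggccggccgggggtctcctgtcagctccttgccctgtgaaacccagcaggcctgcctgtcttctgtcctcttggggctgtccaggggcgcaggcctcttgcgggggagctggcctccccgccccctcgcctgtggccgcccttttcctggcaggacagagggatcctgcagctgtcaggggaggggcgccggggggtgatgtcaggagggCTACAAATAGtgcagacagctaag

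The *Des* window held the MEF2 motif, at its bases 257 to 266. It begins 6 bases after the RefSeq start that defines the window and ends 22 bases before the gene start in the NCBIM37 annotation. In all, 3.69% of the 32851 windows of that table hold this motif on either strand. The *Xirp2* window also held one, and the windows of *Dsp*, *Jup*, *Ctnna3* and *Nrap* did not. *Des*, *Xirp2* and the third start of *Ctnna3* each held 2 E boxes (CANNTG), *Nrap* held 3 and *Dsp* held 1, a motif found in 72.3% of windows. TATAAA, in 13.6% of windows, was found only in the third start of *Ctnna3*, and on either strand neither the GATA motif AGATAA (11.2%) nor the CArG box (1.63%) was found in a window of the 6 genes. The NK2 motif AAGTG (46.4%) was found once in *Xirp2* and in the second start of *Ctnna3* and 3 times in *Nrap*. GC content was 73.0% for *Dsp*, 67.0% for the first start of *Ctnna3*, 65.3% for *Des*, 60.7% for *Jup*, 49.7% for *Nrap* and 48.3% for *Xirp2*. These matches describe letters in a window, and no binding was measured here.

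Since *Tnnt2* marks cardiomyocytes, each gene was also expressed relative to *Tnnt2* of the same library, which asks whether it changed by more or by less than that gene. Relative to *Tnnt2*, 1.94% of all genes were lower and 92.2% were higher in the libraries labelled *Taf4a*-/-, and the median difference was 2.64 on the log2 scale. *Tnnt2* itself had a log2 fold change of -2.65, where the 10 cardiomyocyte markers ran from -4.58 (*Actc1*) to -2.24 (*Myh7*). A difference from *Tnnt2* is thus not one from every marker, as *Actc1* fell further than *Xirp1* (-4.00). *Xirp1* was lower relative to *Tnnt2*, the only 1 of the 8. Its count was 9.18% and 9.02% of that of *Tnnt2* in WT and 3.04% and 3.76% in the others (log2 difference -1.35, SE 0.32, adjusted p = 0.00367, limma). *Ctnna3* was at 3.53% and 3.74% in WT and at 1.21% and 2.82% in the others, and its difference of -0.82 (SE 0.47) did not pass the test (adjusted p = 0.128). Without replicate 2 of the *Taf4a*-/- label it was -1.37 (adjusted p = 0.0242), and over all alternatives the adjusted p ran from 0.0242 to 0.993. The other 6 genes were higher relative to *Tnnt2*, from 1.37 for *Dsc2* and 2.06 for *Dsg2* to 2.84 for *Dsp*, and only *Dsp* and *Pkp2* (2.67) exceeded the median of all genes.

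**Figure D4:**
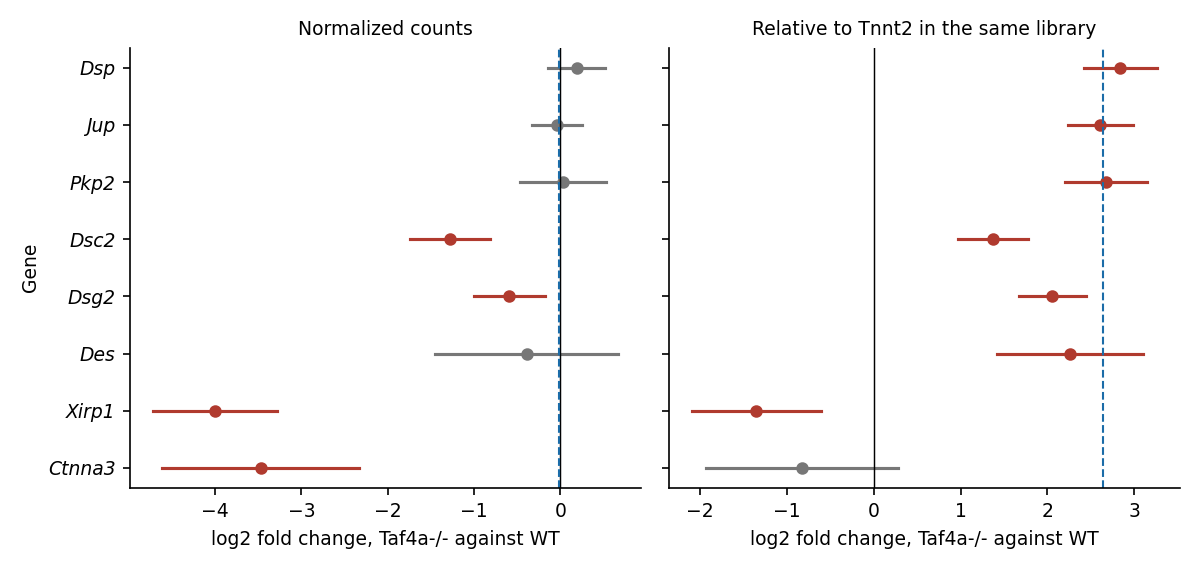
Log2 fold change of the 8 genes, labelled *Taf4a*-/- against WT, with the 95% interval of limma, for normalized counts (left) and relative to *Tnnt2* of the same library (right); red marks an adjusted p under 0.05, the solid line is 0 and the dashed line is the median of all genes. On the left the points run from -4.00 for *Xirp1* to 0.19 for *Dsp*, and on the right *Xirp1* alone is called below 0.

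A second reference, *Dsp*, was chosen after its values were seen, as a desmosomal message that did not pass the test between genotypes. Relative to it, 24.0% of all genes were lower and 5.96% were higher in the libraries labelled *Taf4a*-/-. Of the 7 other genes tested, 4 were lower and none was higher. These were *Xirp1* (-4.19), *Ctnna3* (-3.66), *Dsc2* (-1.47, adjusted p = 2.47e-05, limma) and *Dsg2* (-0.78, adjusted p = 0.00534, limma). *Dsc2* stood at 30.8% and 41.0% of the *Dsp* count in WT and at 12.6% and 13.1% in the others, and *Dsg2* at 23.1% and 28.7% against 14.5% and 15.5%. *Des*, *Jup* and *Pkp2* did not pass (log2 differences -0.58, -0.23 and -0.16; adjusted p = 0.179, 0.41 and 0.584). Part of a difference from *Dsp* is the higher value of *Dsp* itself, which lowers each difference by 0.19. *Dsp* had the highest log2 fold change of the 8 genes, so the same 4 genes being lower again is no separate support. No alternative settings were run for this fit. The adjusted p-values here are not comparable with those of the main fit. For *Dsg2* the SE was larger here (0.19 against 0.17), although the adjusted p was smaller.

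Among 59 other junction and filament genes in 4 lists, 50 were tested. Of these, 20 were lower and 6 were higher than in WT, and their median log2 fold change was -0.32. These are 40.0% and 12.0% of the genes tested, against 17.3% and 11.3% over all genes. Without WT replicate 2 these counts were 9 and 2, and without 1 or the other library labelled *Taf4a*-/- they were 19 and 0. The 14 other desmosome genes included 6 tested, of which 4 were lower and none higher, with a median of -1.33. No gene of this list was higher at an unadjusted p under 0.05 or by voom, with counts of 0 and 0. *Pkp1*, a plakophilin of stratified epithelia, was at 40.3 and 60.3 in WT and at 6.85 and 4.42 in the others (log2 fold change -2.95). *Ppl*, encoding the plakin periplakin, *Pkp3*, a plakophilin of epithelia, and *Perp*, a membrane protein of desmosomes, were lower by -1.83, -1.35 and -1.31 on the log2 scale. Without WT replicate 2 none of the 4 passed the threshold. *Pkp4*, named after its values were seen, was at 2249.6 and 1905 in WT and 1919.7 and 1892 in the others and did not pass.

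Desmosomal genes are shared with epithelia, and the epithelial markers moved in the same libraries. Of 10 such markers, 8 (80%) were lower and none higher (median log2 fold change -0.87), against 17.3% and 11.3% of all genes. They summed to 25033 and 30632 in WT and to 17177 and 12828 in the libraries labelled *Taf4a*-/-, with none at 0. Without WT replicate 2 none of the 8 was called. *Cdh1*, *Cldn6* and *Epcam*, their most abundant genes, had log2 fold changes of -0.62, -1.32 and -0.79. The 10 markers of visceral endoderm and liver, an epithelium, were all lower (median -5.97, sums 87799 and 69774 against 1313 and 961), and *Alb* was at 0 in both libraries labelled *Taf4a*-/-. Their most abundant genes were *Afp*, *Apob* and *Ttr*. The part of epithelial cells in the *Dsc2* and *Dsg2* values, or in those of the other desmosome genes, was not tested. The keratins made by simple epithelia were split. *Krt8* and *Krt18*, named after their values were seen, did not pass the test (-0.01 and -0.05). *Krt7* and *Krt19* were lower (-2.52 and -1.05), the call of *Krt19* being lost in some settings given below.

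The adherens junction and other disc genes, all 21 tested, were split, with 4 lower and 4 higher (19.0% each, against 17.3% lower and 11.3% higher over all genes; median log2 fold change 0.08). Those counts were 1 and 1 without WT replicate 2. *Sorbs2*, encoding an adaptor of the disc and of Z lines, was at 718 and 1091 in WT and at 196 and 143 in the libraries labelled *Taf4a*-/- (log2 fold change -2.40). *Lmo7* and *Ctnna2*, encoding a junction protein and the alpha-catenin of neurons, were lower by -1.81 and -1.79. *Enah*, an actin regulator, was higher by 0.53. The general adherens junction genes *Cdh2*, *Ctnna1* and *Ctnnb1*, named after their values were seen, had log2 fold changes of 0.39, 0.40 and 0.38, of which only that of *Cdh2* passed (adjusted p = 0.0438, limma). Without replicate 1 or without replicate 2 of the *Taf4a*-/- label, none of the 4 higher genes passed. The filament genes had 4 lower and 1 higher of 12 (33.3% and 8.33%, median -0.63). *Krt7* (-2.52), *Cryab* (-2.01), a chaperone that binds desmin, and *Krt19* (-1.05) were lower. The *Krt19* call was lost without WT replicate 2 (-0.68, adjusted p = 0.181), without replicate 2 of the *Taf4a*-/- label (0.119), without a variance trend (0.121) and with the replicate block (0.0507). *Plec*, which encodes the linker plectin, was higher by 0.52, a call lost when any 1 library was left out (adjusted p from 0.0565 to 0.265), and *Vim*, named after its values were seen, was at -0.06.

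Among 11 tested partners of the Xin and Nrap proteins, 8 (72.7%) were lower and 1 (9.09%) was higher (median -1.68). Over all genes tested these shares were 17.3% and 11.3%. *Csrp3*, encoding the muscle LIM protein, was at 441 and 628 in WT and at 13.7 and 14.4 in the libraries labelled *Taf4a*-/- (log2 fold change -5.13). *Actn2* and *Ldb3*, which encode sarcomeric alpha-actinin and a Z line protein, were lower by -3.99 and -3.82. *Neb*, encoding nebulin of skeletal muscle, was higher by 1.53, from 13.2 and 16.6 in WT to 48.9 and 40.9. The *Neb* call was lost when any 1 library was left out (adjusted p from 0.0674 to 0.172) and with the replicate block (0.054). *Flnc*, encoding the filamin of muscle and named after its values were seen, was at 0.73 (adjusted p = 0.0506, limma). Of 9 skeletal muscle markers found, 1 was tested and none was called. They summed to 57.0 and 28.1 in WT and to 41.1 and 25.4 in the others, with *Ckm* at 0 in both WT libraries. Their most counted genes were *Myh3*, *Chrna1* and *Pax7*.

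**Figure D5:**
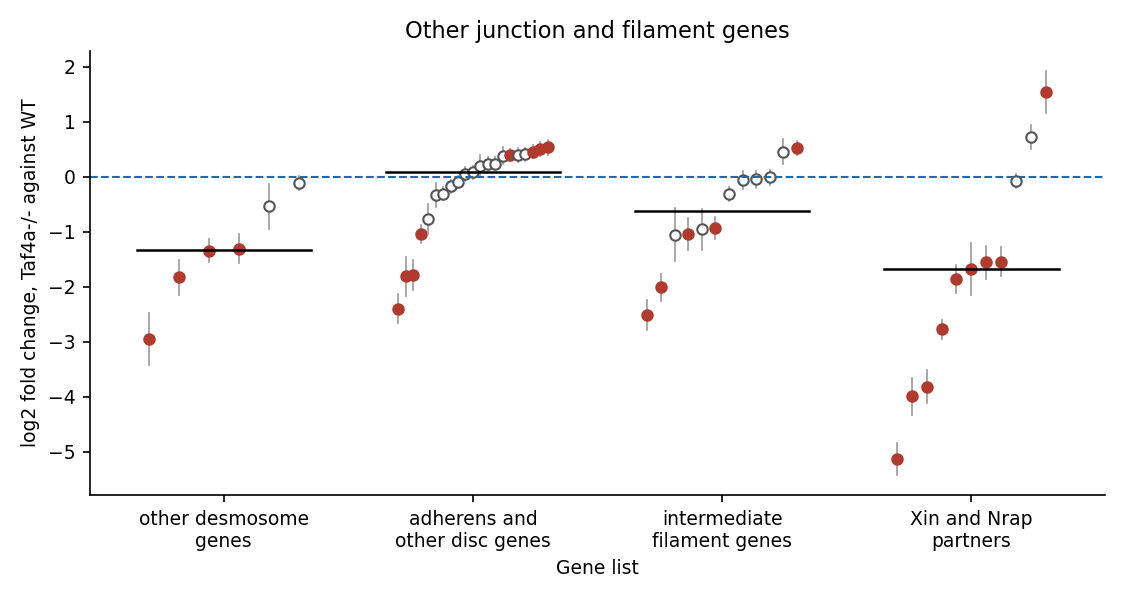
Log2 fold change, labelled *Taf4a*-/- against WT, of each tested gene in 4 lists of other junction and filament genes, with its standard error; filled points have an adjusted p under 0.05 (limma), the black bar is the median of the list and the dashed line is the median of all genes. Medians are -1.33, 0.08, -0.63 and -1.68 from left to right.

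Of 10 pluripotent cell markers, 9 (90%) were higher and none lower (median log2 fold change 2.76), against 11.3% and 17.3% of all genes. They summed to 5467 and 1929 in WT and to 17735 and 20538 in the libraries labelled *Taf4a*-/-. Their most abundant genes were *Pou5f1*, *Sox2* and *Tdgf1*, and *Tdgf1* was the 1 not called (log2 fold change 1.91, adjusted p = 0.06, limma). Of the 7 smooth muscle markers 4 (57.1%) were lower and none higher (median -1.14). The 10 cardiomyocyte markers were all lower, with a median of -2.91, and *Myh6*, *Actc1* and *Myh7* were the most abundant. The log2 fold changes of *Xirp1* (-4.00) and *Ctnna3* (-3.47) lay among those of the 10 cardiomyocyte markers, which ran from -4.58 to -2.24, and those of *Dsc2* and *Dsg2* lay outside that range. The part of these cell types in the members' values was not tested.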

How the data were processed

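Messenger RNA of 4 libraries, 2 WT and 2 labelled *Taf4a*-/-, was measured by sequencing. Per the submitters' processing notes, reads were handled with CASAVA 1.8, TopHat 1.3.3, HTSeq 0.5.3p1 and DESeq, on mm9/NCBI37. The authors deposited 1 normalized count per gene and library for 24637 genes. Each library's values were whole multiples of 1 read, 100% of them within 0.01 reads, which gave 21732746 to 27733034 reads. The sources do not say whether the counting used strand or how the replicate numbers of the 2 genotypes correspond. Per the study's methods, the 2 libraries of a genotype are biological replicates from independent ESC lines. The spread between them is thus one of line, culture and library together, which cannot be told apart. With so few libraries, limma also draws the variance of each gene toward a trend over all genes, and p-values rest on both.

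Genes averaging at least 10 over the libraries, 16926 in all, entered a linear model in limma 3.58.1 (R 4.3.3; lmFit, then eBayes with a trended prior) of log2(value + 1). The call was an adjusted p-value under 0.05, by Benjamini and Hochberg over all of them. Fold changes are on that scale, which understates the change of low genes. Another fit used each gene minus *Tnnt2*, and one minus *Dsp* was added after the data were seen. Levels per kb used the exon union of GENCODE on NCBIM37. The fit between genotypes was tested on simulated data with a fixed dispersion, which the real libraries need not have. The fits relative to *Tnnt2* and *Dsp* were not simulated. Plots were made in Python 3.11.15 with matplotlib 3.10.9. A count test with edgeR or DESeq2 was planned but not run, although whole reads could be recovered, and voom was the only count method used.

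Members and gene lists were chosen with earlier results of these data known. Named genes were the members, *Taf4a*, *Tnnt2*, the 4 called genes with the largest change per list (at most 3 in 1 direction where both had calls) and up to 3 markers at the highest level per marker list. Alternatives covered pseudocounts, filters, scalings, the variance model, voom on recovered reads, the replicate block and each library left out.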

Additional observations from a re-analysis of the deposited data

How the results depend on the processing

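*Xirp1* and *Dsc2* kept their direction and their call in all 13 alternatives, *Ctnna3* in 12 and *Dsg2* in 7. Leaving out 1 library at a time gave 2 to 4 members called lower against 4, 9 to 20 of the other junction and filament genes lower against 20, 0 to 5 of them higher against 6, and 1 to 2 members lower relative to *Tnnt2* against 1. The count of 2 members and of 9 other genes came without WT replicate 2, and the count of 0 higher without 1 or the other library labelled *Taf4a*-/-. Over all genes tested, leaving out 1 library gave 1222 to 3038 lower and 624 to 2476 higher against 2928 and 1906. Without a variance trend 1741 and 856 genes were called, and 1 of the other genes was higher. At an adjusted p under 0.01, 1119 and 331 genes were called, with 12 of the other genes lower and 0 higher. Signs turned for *Pkp2* (-0.24 without *Taf4a*-/- replicate 1, -0.12 without WT replicate 1, against a highest value of 0.29), *Jup* (0.022 with equal totals, 0.047 without WT replicate 2, lowest -0.12) and *Des* (0.27 without WT replicate 2, lowest -1.06), none of them called in any setting. With the replicate block 3 of the other genes were higher and *Dsg2* had an adjusted p of 0.0529. The deviations of same-numbered libraries correlated at 0.01 over genes. This value over all genes cannot show whether same-numbered libraries share an effect on some of them. The cause of these changes was not tested. Count tests with edgeR and DESeq2 were not run. With 6 and 12 reads of *Ctnna3* and 2 to 4 of *Xirp2*, depth limits the precision of both.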

Other observations

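Several of these genes have a close relative used in other tissues, and the ratio of the pair per kb of exon was read in each library. *Ctnna3* was far below its general relative *Ctnna1*, at 0.00351 and 0.00457 of its level in WT and at 0.000165 and 0.000368 in the libraries labelled *Taf4a*-/-. *Jup* stood at 0.107 and 0.131 of *Ctnnb1* in WT and at 0.0921 and 0.0854 in the others. By level *Jup* overlapped between genotypes (log2 fold change -0.04), and *Ctnnb1* was at 0.38, neither of them called. *Dsg2* stood at 0.597 and 0.774 of the adherens junction cadherin *Cdh2* in WT and at 0.356 and 0.334 in the others. *Des* was at 0.0242 and 0.0519 of *Vim* in WT and at 0.0229 and 0.0350 in the others, with the highest ratio in WT replicate 2. *Pkp2* was at 0.924 and 1.34 of *Pkp4* in WT and at 1.47 and 1.03 in the others, which overlapped. These pairs were chosen after the values were seen, and their ratios were not tested.

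Agreement between replicates also varied by gene. The libraries labelled *Taf4a*-/- differed least for *Jup*, by -0.02 on the log2 scale, and most for *Ctnna3*, by 1.05, where the counts rested on 6 and 12 reads. The WT libraries differed least for *Dsp*, by 0.13, and most for *Des*, by 1.33.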
